A study of Mus musculus with 108 samples.

Results

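Hippocampus (HIP) and cerebellum (CB) of wild-type (WT) mouse pups were compared on postnatal day 7 (P7). The comparison took in every P7 library that the labels give as WT and as HIP or CB, 12 of the 108 libraries of the series, 6 from each region. The same 6 mice gave both tissues, so each HIP library was set against the CB library of its own mouse, and mice are numbered here by their HIP library. Dissected tissue was lysed, and total RNA was depleted of ribosomal RNA and sequenced as strand-specific paired-end libraries. The strain is labelled C56Bl/6N, which the study's methods write as C57BL/6N, and these mice carry no engineered allele and had no treatment. They are the controls of a study of Cul3+/- mice, which carry a heterozygous frame-shifting insertion made by genome editing in Cul3, a gene for a scaffold protein of a ubiquitin ligase. Cortex (CX), an embryonic age (E17.5) and an adult age (P35) complete the series. Levels are given as CPM, counts relative to the total count of a library, after scaling by trimmed mean of M values (TMM). The difference between regions is the log2 ratio of HIP over CB from a fit over all genes with the mouse as a block. A gene was called at an adjusted p of at most 0.1.

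As background, the hippocampus is a forebrain structure whose pyramidal neurons fill the CA fields and whose granule neurons fill the dentate gyrus, with GABAergic interneurons that migrate in from the ventral forebrain. The cerebellum forms at the anterior hindbrain, where the ventricular zone gives Purkinje cells and interneurons and the rhombic lip gives granule cells. In newborn mice the granule cell precursors still divide in the outer layer of the cerebellum, driven by Sonic hedgehog that Purkinje cells release, while most pyramidal neurons of the hippocampus have left the cell cycle before birth.

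The 12 libraries held between 28471515 and 42330741 counts, and short structured RNAs such as Rn7s1 took 9.34% to 13.9% of each. Cul3 itself was at 161 to 193 CPM (median 184) in HIP and at 204 to 220 CPM (median 216) in CB. It was higher in CB in each of the 6 mice, by a small margin (log2 fold change −0.24, SE 0.05, adjusted p = 9.0e-04). Markers of neighbouring tissue differed between libraries. Summed choroid plexus markers ranged from 16.2 to 176 CPM in HIP and from 20.3 to 1607 CPM in CB, where mouse 3 gave the highest value and the next was at 399.5 CPM. The 10 hindbrain markers, mostly Hox genes, summed to at most 0.0617 CPM in HIP and at most 0.908 CPM in CB apart from mouse 3, at 7.45 CPM, and none passed the filter on low counts. Neocortex markers summed to 381.6 CPM in HIP of mouse 6 and to at most 260.9 CPM in the other HIP libraries, against 364 to 400 CPM in CB. Of these 10 markers, 6 were called higher in HIP and 2 higher in CB (Cux1 and Foxp2). Foxp2 is also among the Purkinje cell genes below, so the sum does not measure neocortical tissue in CB. Meninges markers were at 242 to 509 CPM in HIP and 528 to 839 CPM in CB, with 9 of 10 called higher in CB. Blood markers were at 247 to 387 CPM in HIP and 416 to 620 CPM in CB, with 5 of 5 called higher in CB, whereas all 6 ependyma markers were called higher in HIP (27.8 to 51.8 CPM against 3.25 to 17.9 CPM). Of all tested genes, 40.0% were called higher in CB and 39.2% higher in HIP. Thalamus markers summed to 127 to 155 CPM in HIP and 53.0 to 73.7 CPM in CB, and striatum markers to 49.9 to 59.1 CPM in HIP and 39.1 to 50.4 CPM in CB. Microglia markers summed to 213 to 246 CPM in HIP and 173 to 222 CPM in CB, and endothelium markers to 219 to 250 CPM in HIP and 253 to 284 CPM in CB. The part of these tissues in the differences below was not tested.

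The dissections carried the markers of their labels. Emx1, which marks the dorsal forebrain, was present in every HIP library and close to 0 in every CB library. En2, a hindbrain territory factor, and Pcp2, a Purkinje cell protein, showed the opposite pattern. Emx1 was also present in CX of these mice (mean 23.3 CPM, against 16.5 CPM in HIP), so it does not set HIP apart from CX. All 6 hippocampal and all 7 cerebellar markers plotted were called in the direction of their label, with no overlap between the regions. Of all tested genes, 39.2% were called higher in HIP and 40.0% higher in CB, and 57.8% did not overlap.

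**Figure D1:**
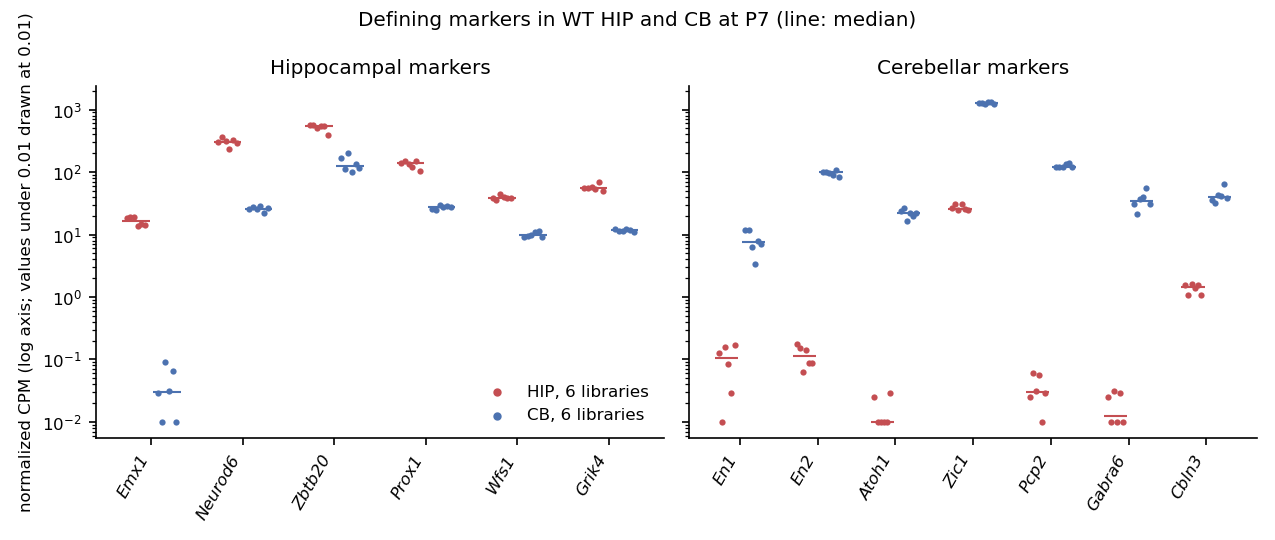
Defining markers of each region. Each point is 1 library, the vertical axis is normalized CPM on a log scale with values under 0.01 drawn at 0.01, and the line is the median of 6 libraries. Every hippocampal marker is higher in all HIP libraries than in any CB library, and every cerebellar marker the reverse.

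The regions differed in most expressed genes. Of 17759 genes that passed the filter on low counts, 14070 were called (79.2%), 6970 higher in HIP (39.2%) and 7100 higher in CB (40.0%) by edgeR's quasi-likelihood test. The median log2 fold change of all tested genes was −0.02. Because so many genes were called, a minimum size of 2-fold was also set, which left 2724 genes higher in HIP (15.3%) and 1982 higher in CB (11.2%). The share higher in HIP, 57.9% of these genes, became 49.7% of 4740 genes when libraries were scaled by totals alone. At 8-fold or more there were 482 genes higher in HIP and 342 higher in CB, and at 32-fold or more 114 and 92. The 2 sets of 6 libraries did not overlap for 10268 genes (57.8%). Of the 4706 genes called at 2-fold or more, 4419 did not overlap and 4579 had the same sign in all 6 mice. When the minimum size was built into the test itself, 3840 genes were called. In bulk tissue, a higher level can come from more cells of a type or from more RNA per cell, and these cannot be told apart. With the mouse as a block, the p-values are set against the spread of the HIP to CB difference over these 6 mice.

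**Figure D2:**
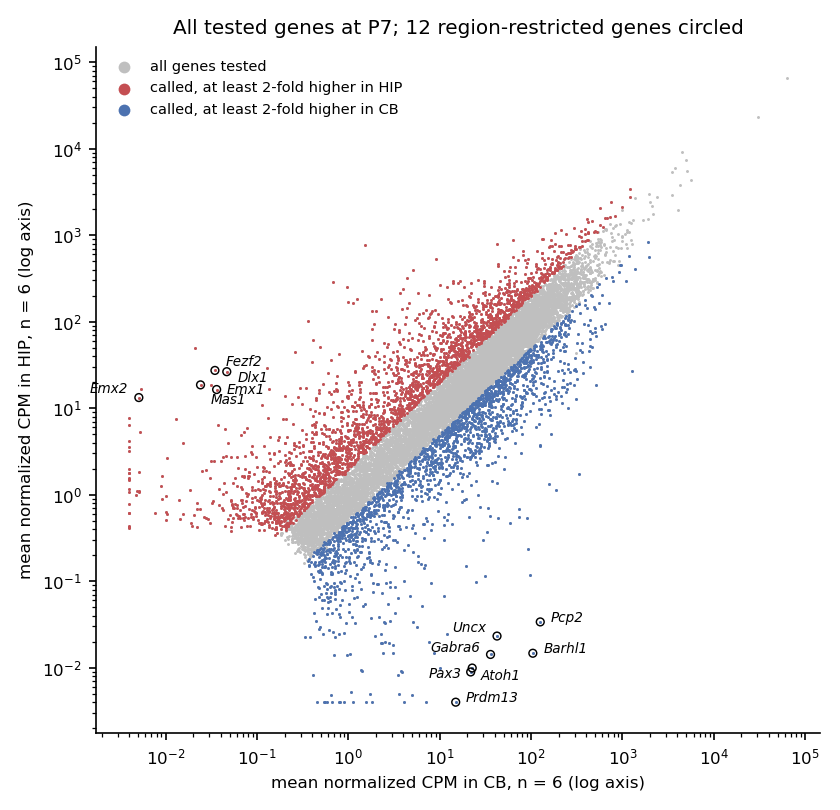
Mean normalized CPM of all 17759 tested genes in CB and HIP, both axes on a log scale, with means under 0.004 drawn at 0.004. Colours mark genes called with at least 2-fold difference, and circles mark the 12 genes named in the text with at least 10 CPM in every library of one region and under 0.1 CPM in every library of the other.

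A set of 14 genes came close to being present or absent. At 10 CPM or more in all libraries of one region and under 0.1 CPM in all of the other were 7 genes of HIP (among them Dlx1, Emx1, Emx2, Fezf2 and Mas1) and 7 genes of CB (Atoh1, Barhl1, Gabra6, Pax3, Pcp2, Prdm13 and Uncx). Most of these encode transcription factors, while Mas1 is a G protein-coupled receptor, Gabra6 a GABA-A receptor subunit and Pcp2 a Purkinje cell protein. Fezf2, a factor of forebrain projection neurons, was at 21.3 to 33.2 CPM (median 26.3) in HIP and at 0 to 0.0645 CPM (median 0.0310) in CB. Barhl1 (chr2:28907679-28916668, GRCm38), a factor of the rhombic lip lineage, was at 93.6 to 112 CPM (median 104) in CB and at 0 to 0.0575 CPM (median 0) in HIP. That the regions stood apart in all libraries for both genes follows from the rule that picked them. The log2 fold change of Fezf2 was 9.54 (SE 0.17, adjusted p = 1.1e-11). For genes with a handful of counts in the low region the fitted fold depends on the prior count, and the ratio of pooled counts is given with its 95% exact interval for counting error. Barhl1 had 3 counts in all HIP libraries together, and its ratio of CB over HIP was 7230 (2470 to 35100). The ratio was 2290 (633 to 18900) for Atoh1 (chr6:64729125-64731245), which commits rhombic lip cells to the granule lineage, and 2380 (657 to 19600) for Pax3, an early hindbrain factor. Prdm13, which restrains glutamatergic fate in the GABAergic lineage, had no count in HIP and was at least 1040-fold higher in CB, against a floor of 3 counts over the 6 HIP libraries. In the other direction the ratio of HIP over CB was 2770 (497 to 109000) for Emx2, a dorsal forebrain factor.

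Some enzymes reached folds of the same order at far higher abundance. Crym (chr7:120186380-120202111), which binds thyroid hormone in the cytosol, was at 675 to 890 CPM (median 753) in HIP and at 0.871 to 2.45 CPM (median 1.35) in CB. Gda (chr19:21391307-21473445), the guanine deaminase that also organizes synaptic scaffolds, was at 266 to 315 CPM (median 278) in HIP and at 0.315 to 1.496 CPM (median 0.560) in CB. No CB library came near a HIP library for either gene, and the log2 fold changes were 8.99 (SE 0.12, adjusted p = 1.9e-12) and 8.74 (SE 0.18, adjusted p = 2.2e-11). In CX of the same mice, the mean of Crym was 148 CPM, against 775 CPM in HIP, and that of Gda 444 CPM, against 287 CPM in HIP. The other genes among the 10 largest per direction were Dlx6os1, the long RNA transcribed from the Dlx5 and Dlx6 locus (log2 fold change 9.16 for ENSMUSG00000090063), in HIP, and En2, Lbx1 and Tlx3, homeobox factors of the hindbrain, in CB. Tlx3 had a log2 fold change of −8.76, and the pooled ratio of CB over HIP for Lbx1 was 1030 (285 to 8520).

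Forebrain transcription factors were mostly higher in HIP. Of the 18 members, 18 were tested, 15 were called higher in HIP (13 by at least 2-fold) and 3 higher in CB. Of all genes, 39.2% were called higher in HIP (15.3% by at least 2-fold) and 40.0% higher in CB. The median log2 fold change of the list was 2.92, against −0.02 for all genes. Lhx2, which holds hippocampal identity, was at 53.2 to 70.7 CPM (median 61.5) in HIP and 0.295 to 0.550 CPM (median 0.387) in CB, so that log2 HIP over CB was 7.23 (SE 0.10, adjusted p = 1.9e-12). Bcl11b, a factor of deep-layer and hippocampal neurons, had a log2 fold change of 6.33, Nr4a3 6.19, and Tbr1, a factor of glutamatergic neurons, 4.48. Zbtb20, which the developing hippocampus needs, was at 396 to 565 CPM (median 544) in HIP and still at 99.2 to 205 CPM (median 126) in CB, so its log2 fold change was 1.93 (SE 0.13, adjusted p = 2.0e-07). The 3 members higher in CB were Otx1 (−1.12), Neurod2 (−0.33) and Zbtb18 (−0.12, adjusted p = 0.081). The call of Zbtb18 was lost in several alternatives, and its regions overlapped.

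Genes of hippocampal subfields were mostly higher in HIP. Of 28 members, all tested, 18 were higher in HIP by at least 2-fold and 3 higher in CB by at least 2-fold (median log2 fold change 1.76). At that size, 15.3% of all genes were higher in HIP and 11.2% higher in CB. All 5 CA1 genes and 6 of 7 dentate granule genes were called higher in HIP by at least 2-fold, as were 3 of 4 mossy cell genes, and no test compared the fields. Pou3f1, a POU factor of CA1, was at 28.0 to 50.7 CPM (median 43.2) in HIP and 0.285 to 1.37 CPM (median 0.755) in CB (log2 fold change 5.74, SE 0.21, adjusted p = 1.3e-09). Its mean was 42.0 CPM in CX of the same mice and 42.1 CPM in HIP, so it was not particular to HIP. Prox1, which maintains dentate granule identity, was at 105 to 152 CPM (median 138) in HIP and 24.4 to 30.2 CPM (median 27.2) in CB (log2 fold change 2.30). Neither gene overlapped between regions. Of the 6 CA2 genes, Rgs14, a regulator of G protein signalling, had the largest fold change toward HIP (6.05, SE 0.16), while Pcp4, a calmodulin regulator, was higher in CB (−2.21, SE 0.07). Of the 6 CA3 genes, 3 were called higher in HIP, against 39.2% of all genes, led by the kainate receptor subunit Grik4 (2.28). Another 1 was called higher in CB (Cdh24, −0.85), and Bok (0.01, SE 0.07) and Nectin3 (−0.09, SE 0.08) did not pass the test. Calb1, the calcium buffer calbindin that marks dentate granule cells and also Purkinje cells, was at 68.9 to 82.8 CPM (median 74.6) in HIP and 461 to 538 CPM (median 506) in CB, a log2 fold change of −2.74 (SE 0.06). Pcp4 also belongs to the Purkinje list, so these members mark cells of both regions.

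Genes of forebrain interneurons were mostly higher in HIP. Of 20 members, 14 were higher in HIP by at least 2-fold and 1 higher in CB by at least 2-fold, and the median log2 fold change was 4.62. At that size, 15.3% of all genes were higher in HIP and 11.2% higher in CB. Among the 10 transcription factors all were called higher in HIP. Lhx6, of the medial ganglionic eminence lineage, was at 28.8 to 39.4 CPM (median 34.6) in HIP and 0.313 to 0.581 CPM (median 0.343) in CB (log2 fold change 6.39, SE 0.12). Dlx5 and Dlx6 had no count in any CB library and were at least 105-fold and 137-fold higher in HIP, and the ratio for Dlx2 was 281 (77.5 to 2330). Peptides that mark interneuron classes followed, with log2 fold changes of 4.46 for Sst, 5.41 for Npy, 5.18 for Cck and 6.16 for Vip. Pvalb, the calcium buffer of fast-spiking interneurons and of Purkinje cells, was at 0.324 to 0.778 CPM (median 0.465) in HIP and 42.3 to 77.9 CPM (median 58.7) in CB. Its log2 fold change was −6.96 (SE 0.13, adjusted p = 1.2e-11). Reln, the secreted layering signal, was higher in CB (−0.59), and Nos1 did not pass the test (0.04, SE 0.08). Of the 8 genes that mark Cajal-Retzius cells in the forebrain, 4 were higher in CB by at least 2-fold (Lhx1, Ebf3, Lhx5 and Nhlh2, −5.57 to −3.38), and 2 were higher in HIP by at least 2-fold (Calb2 at 1.62 and Ndnf at 1.39).

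Cerebellar transcription factors had the largest median difference of the 25 lists plotted. Of 38 members, 36 passed the filter, and 33 were called higher in CB, all by at least 2-fold, against 11.2% of all genes (median log2 fold change −4.96). Gbx2 and Pax8 did not pass it, and Pax5 was tested and not called. Among the territory factors, En2 was at 82.0 to 108 CPM (median 99.3) in CB and 0.0622 to 0.174 CPM (median 0.115) in HIP, so that log2 HIP over CB was −9.61 (SE 0.10, adjusted p = 4.4e-13). Its relative En1 was lower and more variable in CB, at 3.40 to 11.98 CPM (median 7.49), against 0 to 0.172 CPM in HIP. Of the 18 factors of the rhombic lip and granule lineage, 16 were higher in CB. Zic genes, zinc finger factors of granule precursors, were higher in CB. Zic1 was at 1210 to 1325 CPM (median 1263) in CB and 24.5 to 30.99 CPM (median 25.9) in HIP. The log2 fold changes were −5.56 for Zic1, −5.02 for its divergent neighbour Zic4, −4.24 for Zic2 and −4.23 for its neighbour Zic5. Per kilobase of exon, Zic1 stood at 223 CPM per kilobase in CB and 4.76 CPM per kilobase in HIP. Meis1 and Meis2, homeobox relatives, went in opposite directions. Meis1 was at 151 to 171 CPM (median 156) in CB and 1.03 to 1.84 CPM (median 1.22) in HIP (log2 fold change −6.88, SE 0.10). Meis2 was at 28.8 to 57.1 CPM (median 45.7) in HIP and 0.512 to 15.6 CPM (median 6.08) in CB (2.92, SE 0.40, adjusted p = 6.0e-05). All 10 factors of the GABAergic lineage were higher in CB, among them Tfap2b (−7.90), the Purkinje factor Skor2 (pooled ratio 1020, 183 to 40400), Ptf1a, which founds that lineage (pooled ratio 165, 56.2 to 803), and Pax2, of interneuron precursors (pooled ratio 212, 72.4 to 1030).

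The 4 NeuroD factors, which drive neuronal differentiation, divided between the regions. Neurod6 (chr6:55677822-55681263) was at 238 to 362 CPM (median 305) in HIP and 22.2 to 28.3 CPM (median 25.96) in CB. Neurod1 (chr2:79452521-79456751) was at 67.4 to 100 CPM (median 84.2) in HIP and 547 to 638 CPM (median 606) in CB. Neither overlapped, and the log2 fold changes were 3.55 (SE 0.09, adjusted p = 1.2e-10) and −2.89 (SE 0.09, adjusted p = 5.1e-10). Neurod4 was low in both and higher in CB (−2.20, SE 0.14). Neurod2 was at 124 to 174 CPM (median 136) in HIP and 150 to 192 CPM (median 180) in CB, which overlapped, although CB was higher in 6 of 6 mice (−0.33, SE 0.06, adjusted p = 6.7e-04). Per kilobase of exon the order was Neurod6 (142), Neurod2 (45.2), Neurod1 (29.98) and Neurod4 (0.807 CPM per kilobase) in HIP, and Neurod1 (221), Neurod2 (56.7), Neurod6 (12.1) and Neurod4 (3.65 CPM per kilobase) in CB.

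Granule and Purkinje cell genes were mostly higher in CB. Of 12 granule cell genes, 7 were higher in CB by at least 2-fold and 2 higher in HIP by at least 2-fold (median −1.48). At that size, 11.2% of all genes were higher in CB and 15.3% higher in HIP. Fat2, an atypical cadherin of granule cells, was at 274 to 429 CPM (median 334) in CB and 1.24 to 2.66 CPM (median 1.57) in HIP (log2 fold change −7.58, SE 0.15). Gabra6, the GABA-A subunit of mature granule cells, was at 21.2 to 56.0 CPM (median 34.1) in CB and 0 to 0.0311 CPM in HIP, a pooled ratio of 2460 (840 to 11900). Slc17a7, the vesicular glutamate transporter VGLUT1, was already at 53.9 to 84.2 CPM (median 60.1) in CB but at 507 to 685 CPM (median 539) in HIP (3.15, SE 0.05, adjusted p = 4.3e-12). Calb2, calretinin, was also higher in HIP (1.62), and Grin2c, the NMDA subunit of mature granule cells, did not pass the test (−0.08, SE 0.18). Of 22 Purkinje cell genes, 18 were higher in CB by at least 2-fold and 1 higher in HIP (median −2.41). Pcp2 was at 119 to 142 CPM (median 120) in CB and 0 to 0.0617 CPM (median 0.0299) in HIP (−11.73, SE 0.12). Car8, an inhibitor of the inositol trisphosphate receptor, was at 488 to 552 CPM (median 517) in CB and 16.1 to 23.97 CPM (median 18.2) in HIP (−4.80, SE 0.08).

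**Figure D3:**
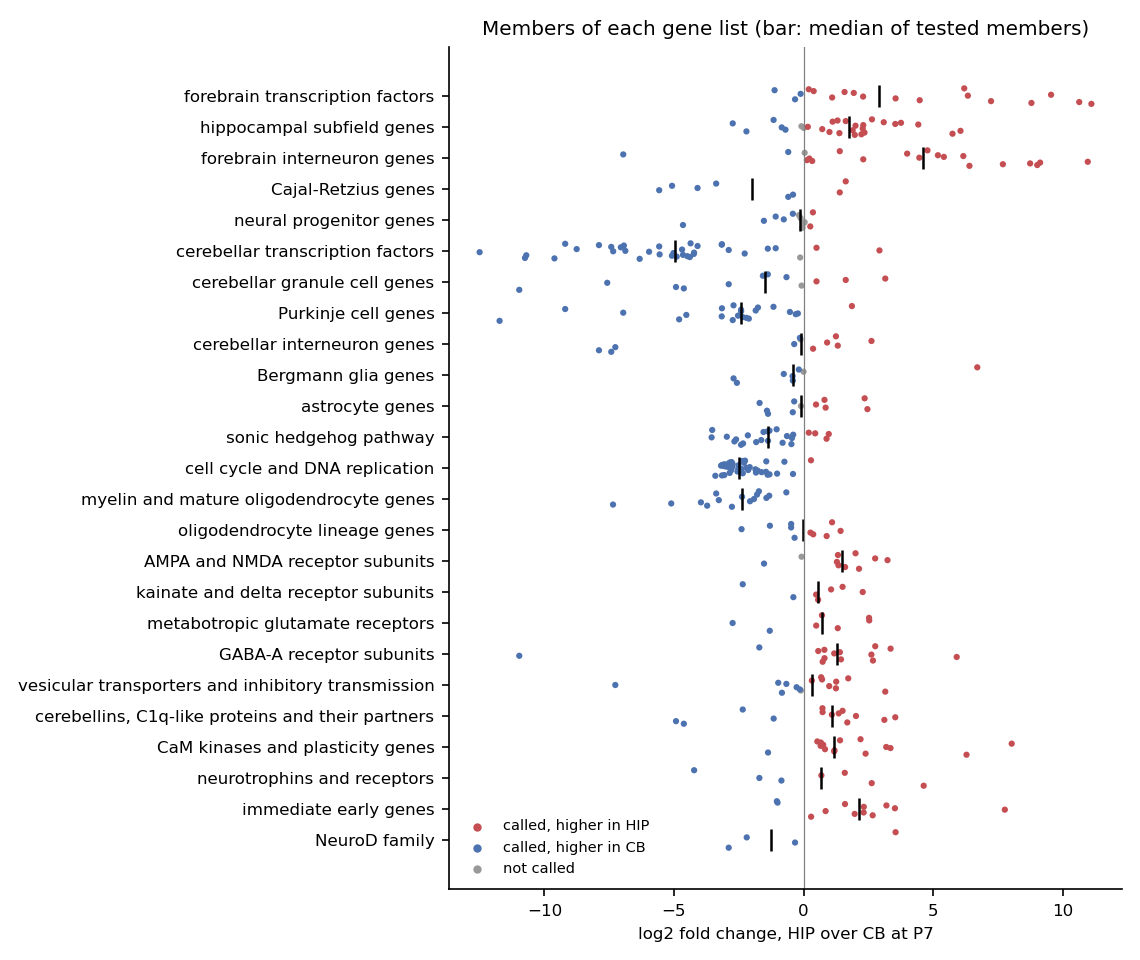
Log2 fold change of HIP over CB at P7 for every tested member of 25 gene lists. Each point is 1 gene, coloured by the direction of its call, grey points are genes not called, and the black bar is the median of the tested members. Forebrain factors and forebrain interneuron genes lie mostly to the right, and cerebellar factors, cell cycle and myelin genes to the left.

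Cell cycle genes were higher in CB. Of 45 cell cycle and DNA replication genes, 44 were tested, and 41 were higher in CB by at least 2-fold, against 11.2% of all genes, with a median log2 fold change of −2.50 and no member higher in HIP by 2-fold. Mki67, the proliferation marker Ki-67, was at 37.5 to 51.7 CPM (median 43.95) in HIP and 300 to 409 CPM (median 363) in CB (−3.01, SE 0.07, adjusted p = 3.5e-11). Top2a, the topoisomerase that untangles chromosomes, was at 43.7 to 62.2 CPM (median 49.7) in HIP and 374 to 508 CPM (median 442) in CB (−3.07, SE 0.06). Ccna2, cyclin A, had the largest fold change of the list (−3.41, SE 0.08). The 14 replication genes were all higher in CB, with a median of −2.44, and among the subunits of the MCM helicase the values lay between −2.80 for Mcm5 and −1.76 for Mcm4. Inhibitors of cyclin-dependent kinases were higher in CB too, with log2 fold changes of −2.37 for Cdkn1c and −1.44 for Cdkn1b, which rises as granule precursors leave the cycle. Cdkn2d was the exception (0.28, SE 0.07, adjusted p = 4.2e-03), higher in HIP in 5 of 6 mice with overlapping regions.

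General progenitor genes did not follow the cell cycle list. Of 12 members, 5 were called higher in CB, near the 40.0% of all genes, and 2 higher in HIP, against 39.2%. The other 5 did not pass the test, and the median was −0.15. By at least 2-fold, 3 of the 12 were higher in CB and 0 higher in HIP, against 11.2% and 15.3% of all genes. Nes, the intermediate filament nestin, was at 45.9 to 56.3 CPM (median 53.1) in HIP and 47.1 to 66.6 CPM (median 51.9) in CB, with a log2 fold change of −0.05 (SE 0.06). Hes1, Hes5 and Neurog2 did not pass the test either. The member furthest toward CB was Pax6, which granule precursors share with forebrain progenitors, at 242 to 262 CPM (median 247) in CB and 9.22 to 10.98 CPM (median 9.79) in HIP (−4.66, SE 0.05, adjusted p = 7.7e-13). Eomes, a factor of intermediate progenitors and of unipolar brush cells, was at 18.5 to 34.9 CPM (median 26.3) in CB and 9.27 to 17.1 CPM (median 11.4) in HIP (−1.08, SE 0.09).

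The promoters of cell cycle genes are shown because 43 of the 44 tested members of that list were called higher in CB. Sequences are from RefSeq on build GRCm38.p6 and cover the 250 bases before the start site, 5′ to 3′ on the strand of the gene. Capitals mark matches on either strand to CCAAT, to TTTGAA, the letters of the cell cycle homology region (CHR), or to 3 strings of the E2F motif (TTTCCCGC, TTTGGCGC and TTTCGCGC), and E2F matches may overlap each other. Top2a lies on the minus strand at chr11:99024190-99024439, Cdc20, which activates the anaphase-promoting complex, on the minus strand at chr4:118437344-118437593, Mcm5 on the plus strand at chr8:75109259-75109508 and Mcm6 on the minus strand at chr1:128359706-128359955.
Top2a: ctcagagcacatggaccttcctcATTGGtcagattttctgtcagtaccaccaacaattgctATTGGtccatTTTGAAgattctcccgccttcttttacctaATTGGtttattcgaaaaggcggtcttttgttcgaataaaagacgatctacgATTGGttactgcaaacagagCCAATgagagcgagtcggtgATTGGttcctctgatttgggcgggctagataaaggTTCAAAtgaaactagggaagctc
Cdc20: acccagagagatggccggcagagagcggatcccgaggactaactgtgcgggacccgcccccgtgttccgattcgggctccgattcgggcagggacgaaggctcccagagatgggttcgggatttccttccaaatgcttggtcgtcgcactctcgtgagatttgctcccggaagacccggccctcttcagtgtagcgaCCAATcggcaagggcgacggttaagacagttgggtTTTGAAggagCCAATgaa
Mcm5: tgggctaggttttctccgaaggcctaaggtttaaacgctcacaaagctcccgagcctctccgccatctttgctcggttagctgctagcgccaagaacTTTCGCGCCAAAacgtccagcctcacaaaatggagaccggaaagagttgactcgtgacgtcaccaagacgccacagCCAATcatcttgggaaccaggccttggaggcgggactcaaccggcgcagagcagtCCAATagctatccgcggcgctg
Mcm6: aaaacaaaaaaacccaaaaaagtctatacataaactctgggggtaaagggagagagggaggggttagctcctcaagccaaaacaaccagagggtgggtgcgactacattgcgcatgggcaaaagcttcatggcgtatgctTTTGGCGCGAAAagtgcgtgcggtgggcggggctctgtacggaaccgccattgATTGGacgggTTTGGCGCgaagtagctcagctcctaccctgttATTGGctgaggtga

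A CCAAT string was in the window of 27 of the 37 list members that have one in the table (73.0%), against 37.5% of 27025 genes. It was in 11 of 12 mitosis genes, 9 of 12 replication genes and 5 of 8 cyclins and kinases. The 27 include Cdkn2d, the 1 member called higher in HIP. The Top2a window held 6 CCAAT strings. The E2F strings were in 7 of the 37 members (18.9%) and in 1.78% of all genes, with 4 of 12 replication genes (Mcm5, Mcm6, Mcm7 and Cdc6) and 0 of 12 mitosis genes. Cdkn2a, which did not pass the filter on low counts, is among the 7. The TTTGAA string was in 8 of the 37 (21.6%) and in 18.3% of all genes, with 2 matches in the Top2a window and 1 in that of Cdc20. A match is a description of the letters and not a bound site, and all 4 promoters shown belong to genes higher in CB, with log2 fold changes of −3.07 for Top2a, −3.19 for Cdc20, −2.80 for Mcm5 and −2.14 for Mcm6.

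Sonic hedgehog pathway genes were mostly higher in CB. The 8 transducers of the signal divided, with 5 called higher in CB and 3 higher in HIP, against 40.0% and 39.2% of all genes. Of 26 members, 24 were tested, and 15 were higher in CB by at least 2-fold, against 11.2% of all genes (median −1.38). The number higher in HIP by 2-fold was 0, which became 1 without mouse 4 or mouse 5. Shh, the ligand, was at 1.65 to 2.48 CPM (median 1.92) in CB and 0.199 to 0.530 CPM (median 0.372) in HIP (log2 fold change −2.42, SE 0.23, adjusted p = 2.6e-06). Dhh and Ihh, the other ligands, did not pass the filter. Among receptors, Ptch1 was at 115 to 122 CPM (median 118) in CB and 30.8 to 37.0 CPM (median 33.5) in HIP (−1.83, SE 0.05), and Smo, the signal-passing receptor, had a log2 fold change of −1.64 and the co-receptor Boc one of −2.61. Cdon, a co-receptor related to Boc, was higher in HIP, at 13.1 to 16.7 CPM (median 14.6) against 6.55 to 9.13 CPM (median 8.04) in CB (0.88, SE 0.09). Gli1, a transcription factor of the pathway and itself a target, was at 18.1 to 25.2 CPM (median 20.9) in CB and 1.54 to 1.95 CPM (median 1.80) in HIP (−3.55, SE 0.09, adjusted p = 8.2e-11). Gli2, the main activator, differed by −2.96 and Gli3, the main repressor, by −0.64. All 5 targets in granule precursors were higher in CB by at least 2-fold, led by Sfrp1 (−3.53) and including Mycn (−1.55) and Ccnd1 (−1.39). Gpr161, a brake on the pathway in cilia, was higher in HIP (0.97, SE 0.05), as were Gsk3b (0.44) and Spop (0.20). The call of Spop was lost when libraries were scaled by their totals alone.

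Myelin genes were higher in CB. All 15 tested members of 16 myelin and mature oligodendrocyte genes were called higher in CB, against 40.0% of all genes. At least 2-fold higher were 14, against 11.2% of all genes. The median was −2.38, and Opalin did not pass the filter. Mbp, myelin basic protein, was at 60.4 to 77.0 CPM (median 70.2) in HIP and 179 to 858 CPM (median 538) in CB (log2 fold change −2.77, SE 0.20, adjusted p = 3.4e-07). Mobp, another myelin protein, was at 0.172 to 1.33 CPM (median 0.436) in HIP and 9.88 to 172 CPM (median 95.3) in CB (−7.35, SE 0.23). CB libraries differed widely, with the lowest values in mouse 2 and the highest in mouse 3, yet every CB library exceeded every HIP library for both genes. Of 10 genes of the oligodendrocyte lineage as a whole, 5 were called in each direction, near the 39.2% and 40.0% of all genes. Cspg4, the NG2 proteoglycan of precursors, was higher in HIP (1.43, SE 0.06) and Pdgfra, their growth factor receptor, slightly so (0.26, SE 0.05). Enpp6, of newly forming oligodendrocytes, was at 6.23 to 9.12 CPM (median 7.58) in HIP and 20.9 to 52.5 CPM (median 43.8) in CB (−2.40, SE 0.10).

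Of 11 astrocyte genes, 5 were called higher in each region, near the 39.2% and 40.0% of all genes, and 1 was not called. The glutamate transporters divided, with Slc1a2 (GLT-1) at 947 to 1339 CPM (median 1217) in HIP and 162 to 280 CPM (median 204) in CB, so that log2 HIP over CB was 2.46 (SE 0.07, adjusted p = 2.6e-10). Slc1a3 (GLAST) was at 688 to 736 CPM (median 727) in HIP and 904 to 1036 CPM (median 954) in CB (−0.43, SE 0.05). Fgfr3, a growth factor receptor of astrocytes, was also higher in HIP (2.35, SE 0.17), whereas Aqp4, the water channel (−1.38), Aldh1l1 (−1.42) and S100b (−1.70) were higher in CB. Of 8 Bergmann glia genes, 6 were called higher in CB, against 40.0% of all genes, and 2 of them by at least 2-fold, Sept4 (−2.70) and Gdf10 (−2.58). Npy2r, a neuropeptide Y receptor on that list, was instead at 41.3 to 73.7 CPM (median 48.6) in HIP and 0.323 to 0.855 CPM (median 0.416) in CB (6.70, SE 0.16).

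Glutamate receptor subunits were higher in HIP with few exceptions. Of 11 AMPA and NMDA subunits, 10 were tested, and 8 were higher in HIP and 1 higher in CB, each by at least 2-fold. At that size, 15.3% of all genes were higher in HIP and 11.2% higher in CB. The median of the subunits was 1.47, and their count in CB became 2 without mouse 6. Gria1 was at 650 to 805 CPM (median 740) in HIP and 159 to 181 CPM (median 166) in CB (log2 fold change 2.14, SE 0.05, adjusted p = 4.0e-11). Gria4 was at 66.4 to 76.2 CPM (median 69.7) in HIP and 177 to 222 CPM (median 208) in CB (−1.53, SE 0.05, adjusted p = 9.9e-10). The other 2 AMPA subunits were higher in HIP, Gria2 by 1.60 and Gria3 by 1.34. Per kilobase of exon, Gria1 led in HIP (123) before Gria2 (49.7), Gria4 (11.1) and Gria3 (8.20 CPM per kilobase), while in CB Gria4 (32.2) and Gria1 (27.9) were ahead of Gria2 (16.4) and Gria3 (3.24 CPM per kilobase). Among NMDA subunits, Grin2a was at 235 to 321 CPM (median 284) in HIP and 20.1 to 43.0 CPM (median 29.0) in CB (3.23, SE 0.09). Grin2b was at 776 to 1024 CPM (median 893) in HIP and 96.4 to 192 CPM (median 122) in CB (2.76, SE 0.10). Grin1, the obligatory subunit, differed by 1.28, Grin3a by 2.00 and Grin2d by 1.32. Grin2c was at 4.81 to 9.36 CPM (median 7.31) in HIP and 4.64 to 12.9 CPM (median 6.72) in CB, which overlapped. Grin3b did not pass the filter.

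The other glutamate receptors were divided between the regions. Grid1, a delta receptor, was higher in HIP (log2 fold change 1.501, SE 0.05). Of 7 tested metabotropic receptors, 3 were higher in HIP and 2 higher in CB by at least 2-fold, against 15.3% and 11.2% of all genes. Grm5 was at 497 to 555 CPM (median 532) in HIP and 74.6 to 109 CPM (median 92.5) in CB (2.53, SE 0.07). Grm4, a presynaptic receptor of granule cells, was higher in CB (−2.74, SE 0.11). Of the 5 kainate subunits, Grik2 was slightly higher in CB (−0.40, SE 0.04). The other 4 were called higher in HIP, from 0.48 for Grik3 to 2.28 for Grik4, against 39.2% of all genes. By at least 2-fold, 2 of the 5 were higher in HIP, against 15.3% of all genes.

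**Figure D4:**
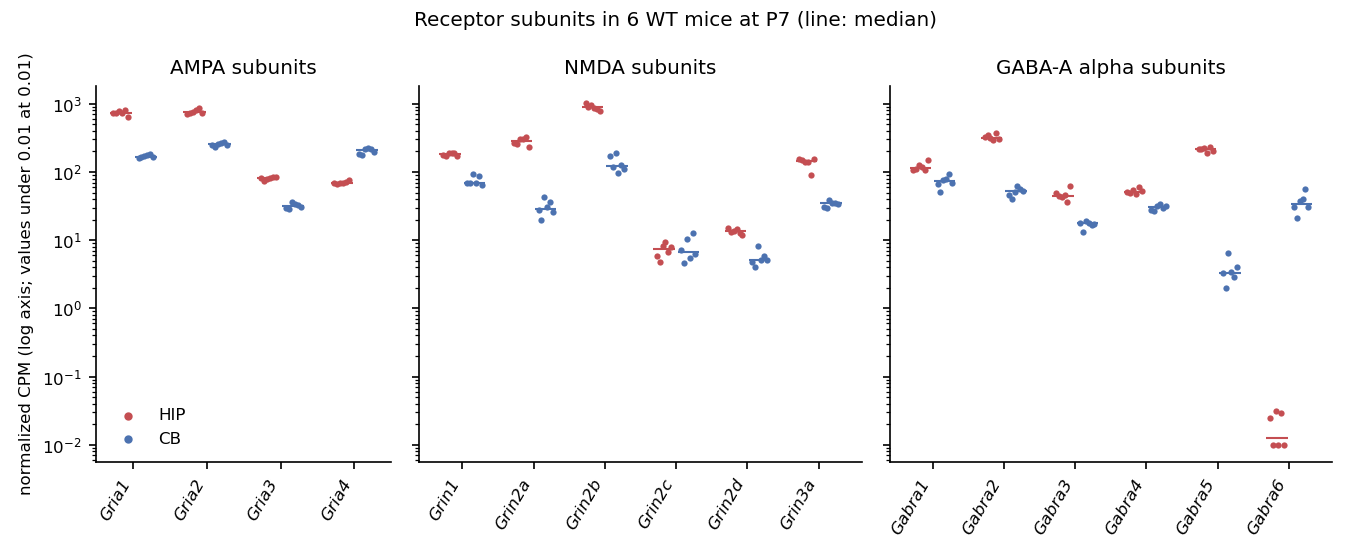
AMPA, NMDA and GABA-A alpha subunits. Each point is 1 library, the vertical axis is normalized CPM on a log scale with values under 0.01 drawn at 0.01, and the line is the median of 6 libraries. Gria4 and Gabra6 are higher in CB, Grin2c overlaps, and the other subunits are higher in HIP.

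Of the 16 GABA-A subunits, 14 were tested, 12 were called higher in HIP, against 39.2% of all genes (8 by at least 2-fold), and 2 higher in CB (median 1.29). Gabra5, the subunit of extrasynaptic receptors in hippocampal pyramidal cells, was at 191 to 232 CPM (median 217) in HIP and 1.96 to 6.44 CPM (median 3.34) in CB (log2 fold change 5.90, SE 0.17, adjusted p = 2.6e-10). Gabra2 was at 290 to 375 CPM (median 320) in HIP and 39.8 to 62.2 CPM (median 52.4) in CB (2.67, SE 0.10). The 2 members higher in CB were Gabra6 and Gabrd, the delta subunit that joins it in granule cells, at 14.6 to 26.8 CPM (median 19.1) in CB and 4.93 to 6.70 CPM (median 5.87) in HIP (−1.71, SE 0.12). The chloride transporters moved apart. Slc12a5 (KCC2), which lowers chloride in maturing neurons, was at 248 to 263 CPM (median 252) in HIP and 80.6 to 133 CPM (median 102) in CB (1.26, SE 0.08), while Slc12a2 (NKCC1), which raises it, was higher in CB (−0.98, SE 0.06). Slc6a5, the glycine transporter of glycinergic neurons, was at 8.43 to 19.9 CPM (median 9.43) in CB and 0.0311 to 0.115 CPM in HIP (−7.26, SE 0.19), with the highest CB value in mouse 3. The GABA-synthesizing enzymes differed in size and direction, Gad2 being higher in HIP (1.25, SE 0.07) and Gad1 slightly higher in CB (−0.15, SE 0.05, adjusted p = 0.019).

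Cerebellins, secreted C1q-family proteins that bridge neurexins and delta receptors, were split by member. Cbln1 (chr8:87468405-87472609) was at 300 to 330 CPM (median 307) in CB and 7.63 to 16.6 CPM (median 13.6) in HIP. Cbln3, which pairs with Cbln1, was at 32.02 to 63.3 CPM (median 39.6) in CB and 1.06 to 1.62 CPM (median 1.47) in HIP. Cbln4 was at 9.64 to 13.9 CPM (median 12.3) in HIP and 0.712 to 3.30 CPM (median 1.09) in CB. No cerebellin overlapped between regions, which held for 57.8% of all genes. The log2 fold changes were −4.62 (SE 0.14) for Cbln1, −4.92 (SE 0.09) for Cbln3, 3.11 (SE 0.27) for Cbln4 and 1.68 (SE 0.20) for Cbln2. The C1q-like relatives divided too, with C1ql1, which climbing fibres use, higher in CB (−1.16, SE 0.06) and C1ql2 and C1ql3 higher in HIP (3.53 and 2.02). The neurexins Nrxn2 and Nrxn3 were higher in HIP, by 1.35 and 0.73 on the log2 scale.

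Of 15 CaM kinase and plasticity genes, 14 were called higher in HIP, against 39.2% of all genes, 9 of them by at least 2-fold (median 1.19). Nrgn, neurogranin, which buffers calmodulin, was at 228 to 279 CPM (median 240) in HIP and 0.681 to 1.37 CPM (median 0.939) in CB (log2 fold change 8.03, SE 0.10, adjusted p = 1.5e-12). Camk2a, the alpha subunit of CaMKII, was at 326 to 469 CPM (median 397) in HIP and 4.21 to 5.68 CPM (median 5.15) in CB (6.28, SE 0.06, adjusted p = 4.4e-13). Its relatives Camk2b (2.39) and Camk2g (1.18) differed less in the same direction, and Camk2d was at 151 to 182 CPM (median 157) in CB and 59.5 to 66.3 CPM (median 63.2) in HIP (−1.37, SE 0.04). Per kilobase of exon, Camk2b was the most abundant of the 4 in both regions, at 95.3 in HIP and 18.2 in CB, and Camk2a stood at 53.4 in HIP and 0.683 CPM per kilobase in CB.

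Activity-induced genes and neurotrophins were also mostly higher in HIP. Of 12 immediate early genes, 8 were higher in HIP and 2 higher in CB by at least 2-fold, against 15.3% and 11.2% of all genes (median 2.14). Egr3 was at 26.4 to 30.6 CPM (median 29.1) in HIP and 0.0315 to 0.234 CPM (median 0.122) in CB (log2 fold change 7.76, SE 0.17, adjusted p = 4.2e-11). Arc, which regulates AMPA receptor uptake, was at 15.2 to 25.4 CPM (median 18.6) in HIP and 3.44 to 4.76 CPM (median 3.76) in CB (2.32, SE 0.08). Fos was at 5.77 to 9.28 CPM (median 8.02) in HIP and 4.98 to 8.43 CPM (median 6.28) in CB, and the regions overlapped (0.29, SE 0.11, adjusted p = 0.032). Ier2 (−1.01) and Dusp1 (−1.03) were higher in CB and lay so close to 2-fold that their count fell to 0 without mouse 2 and to 1 without mouse 3 or mouse 5. Bdnf, brain-derived neurotrophic factor, was at 33.5 to 50.2 CPM (median 40.3) in HIP and 1.05 to 1.95 CPM (median 1.67) in CB (4.63, SE 0.11). Ngfr, the low-affinity receptor p75, was at 46.5 to 64.6 CPM (median 49.7) in CB and 2.31 to 3.05 CPM (median 2.79) in HIP (−4.22, SE 0.09), and the TrkB receptor Ntrk2 differed by 0.68 toward HIP.

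The same regions of 6 Cul3+/- mice of the same age gave a comparison in other animals. Cul3 was at 97.7 ± 8.00 CPM (SD, n = 6) in HIP and 121 ± 2.82 CPM (SD, n = 6) in CB of these mice, against 181 ± 11.1 CPM and 213 ± 6.38 CPM (SD, n = 6 each) in WT, and every Cul3+/- library was below every WT library of its region. Of 17978 genes tested, 12844 were called, 50.3% of them higher in HIP, which became 38.7% when libraries were scaled by totals alone. Of 4615 WT genes called at 2-fold or more and tested in Cul3+/- mice, 4608 had the same sign and 4542 (98.4%) were called with it. The difference between genotypes itself was tested with an interaction term over 24 libraries. By edgeR's quasi-likelihood test, 0 of 18856 genes were called (0.0%), with 578 genes at an unadjusted p under 0.05. In simulated data, this design recovered 53% of genes changed by 0.5 on the log2 scale and 90.5% of those changed by 2. Small effects of genotype can thus be missed, and 0 calls do not show that the genotypes are equal. A median of −2.37 for the cell cycle list, 1.47 for AMPA and NMDA subunits and −2.68 for myelin genes in Cul3+/- mice lay beside −2.50, 1.47 and −2.38 in WT.

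The P7 difference was set against that at E17.5 (6 WT mice) and at P35 (5 WT mice, with 1 left out because the title and the study's quality table give different genotypes). Each age comes from its own mice, so age and the handling of each set cannot be told apart, and both comparisons use the same P7 libraries. Against E17.5, 12978 of 19698 genes had a different region difference. By at least 2-fold, log2 HIP over CB was larger (further toward HIP) at P7 in 3292 (16.7%) and lower (further toward CB) in 2572 (13.1%). Against P35, 11311 genes differed, 2108 larger at P7 by at least 2-fold (10.7%) and 2592 lower (13.2%).

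**Figure D5:**
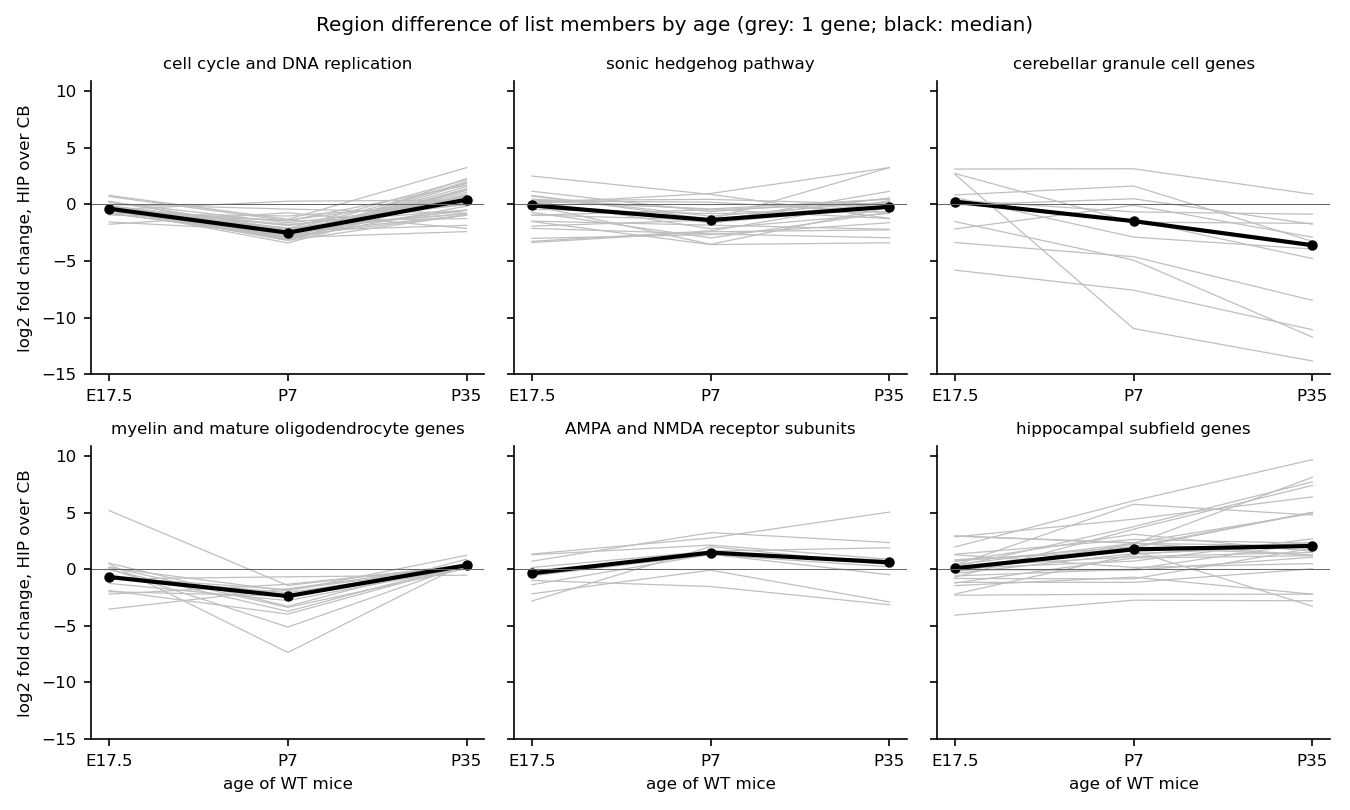
Log2 fold change of HIP over CB in WT mice at E17.5, P7 and P35 for the members of 6 gene lists. Grey lines are single genes and the black line joins the medians. The cell cycle and myelin medians are lowest at P7, and the granule cell median falls from each age to the next.

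The cell cycle genes differed more between regions at P7 than at either other age. The list median was −0.38 at E17.5, −2.50 at P7 and 0.41 at P35. By at least 2-fold, log2 HIP over CB was lower at P7 than at E17.5 in 38 of 44 members, and lower than at P35 in 38 of 44. At that size, 13.1% of all genes were lower at P7 than at E17.5 and 13.2% lower than at P35. With all ages normalized together, Top2a was at 237 ± 71.5 CPM in HIP and 298 ± 41.7 CPM in CB at E17.5 (SD, n = 6 each). At P7 it was at 53.0 ± 7.62 CPM and 446 ± 51.2 CPM (SD, n = 6 each), and at P35 at 5.72 ± 0.884 CPM and 1.202 ± 0.483 CPM (SD, n = 5 each). The log2 HIP over CB of Top2a was shifted toward CB at P7, by −2.77 against E17.5 (SE 0.20, adjusted p = 1.4e-09) and by −5.42 against P35 (SE 0.26, adjusted p = 9.6e-12). The mean level was thus lower in HIP and higher in CB at P7 than at E17.5. The Sonic hedgehog median went from −0.09 to −1.38 and −0.20, with 10 and 13 of 24 members lower by at least 2-fold at P7 than at E17.5 and P35. Gli1 was at −1.51, −3.55 and −3.39. The myelin median went from −0.68 to −2.38 and 0.35. Mbp stood at −1.25, −2.77 and 0.20.

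Neuronal genes shifted on other courses. The AMPA and NMDA median was −0.36 at E17.5, 1.47 at P7 and 0.61 at P35. By at least 2-fold, 8 of 11 members were larger at P7 than at E17.5 and 7 larger than at P35. At that size, 16.7% of all genes were larger at P7 than at E17.5 and 10.7% larger than at P35. The immediate early median was 0.50, 2.14 and 1.11. The hippocampal subfield median was 0.08, 1.76 and 2.06. By at least 2-fold, 15 of 28 members were larger at P7 than at E17.5 and 1 was lower. Set against P35, 3 members were larger at P7 by that size and 14 lower, where 13.2% of all genes were lower. The granule cell median went from 0.24 to −1.48 and −3.61. Cbln3 was at 2.45 ± 1.04 CPM in CB at E17.5, at 43.2 ± 11.4 CPM at P7 (SD, n = 6 each) and at 1515 ± 120 CPM at P35 (SD, n = 5), with log2 fold changes of −1.51, −4.92 and −11.72. The Purkinje median went from −2.68 to −2.41 and −3.40. Sst turned from CB to HIP, at −2.44 at E17.5, 4.46 at P7 and 6.37 at P35, and Slc12a5 was at −2.38, 1.26 and −0.46. Atoh1 was at 27.4 ± 3.77 CPM in CB at E17.5 and 22.2 ± 3.55 CPM at P7 (SD, n = 6 each) and had no count in either region at P35.

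Among the genes with the smallest p of each age comparison, Slc30a3, the zinc transporter of glutamatergic vesicles, went from −5.01 at E17.5 to 2.56 at P7, a difference of 7.50 (SE 0.27, adjusted p = 5.1e-13). Rem2, a small GTPase that reins in calcium channels, went from −1.27 to 2.06. Cntn2, the axonal adhesion molecule TAG-1, went the other way, from 2.73 to −1.57, with 1134 ± 214 CPM in HIP at E17.5 and 208 ± 38.9 CPM at P7 and 169 ± 14.9 CPM and 611 ± 43.0 CPM in CB (SD, n = 6 each). Dio2, which activates thyroid hormone, went from 6.62 to 2.11. Mndal and Ifi203, neighbours in a family of near-identical interferon-inducible genes whose reads can be split uncertainly, went from 3.85 and 5.58 to −1.70 each. Against P35, the growth-associated gene Basp1 was at 453 ± 28.0 CPM in CB at P7 (SD, n = 6) and 7.53 ± 0.751 CPM at P35 (SD, n = 5), while HIP went from 754 ± 56.6 CPM to 297 ± 40.7 CPM, so its region difference was 0.73 at P7 and 5.30 at P35. Neurl1b, a ubiquitin ligase of Notch signalling, stood at 0.87 and 6.08, and the potassium channel Kcnq5 at 1.09 and 6.21. Snrk, a kinase, ran opposite, at 0.48 at P7 and −2.60 at P35, with CB rising from 100 ± 3.71 CPM (SD, n = 6) to 663 ± 46.4 CPM (SD, n = 5).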

How the data were processed

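Dissected HIP and CB tissue of 6 WT mice at P7 were analysed, with 12 Cul3+/- libraries of the same age and region and the WT libraries of E17.5 and P35. The authors trimmed the reads (cutadapt 1.14), aligned them to GRCm38.p5 (STAR 2.5.3a) and deposited RSEM 1.3 expected counts for 53465 genes in 108 libraries. Of these values 5.76% were not whole, and all were rounded. Reads shared by near-identical genes were split by estimation, so members of multigene families are uncertain.

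Libraries were paired by the mouse name in the column headers, since numbers in the titles mark different mice in HIP and CB. The deviations of the 2 libraries of a mouse correlated at −0.135 to 0.25 (median 0.206, 6 pairs), against −0.343 to 0.289 (median −0.0322, 30 pairs) between mice. Replicate libraries differed by more than sampling noise, and none was counted as a repeat.

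Genes were filtered with filterByExpr (minimum count 10, total 15), scaled by TMM and tested with edgeR 4.0.16 (R 4.3.3) by the quasi-likelihood test, with the mouse as a block. P-values were adjusted by Benjamini-Hochberg over all tested genes, and the call threshold was 0.1. Genotype and age were tested as interactions with region. Ratios of pooled counts carry a 95% Clopper-Pearson interval, which covers counting error only, and the floor is 3 counts over a group. Code was tested on simulated data. Alternatives were DESeq2 1.42.0, the likelihood ratio test, other scalings, no filter, other blocks and leaving out mice.

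Named genes were the 10 largest differences per direction among called genes with 10 CPM or more in the higher region and the same sign in all 6 mice, up to 4 called members per list and direction, defining members, 5 genes per direction and age comparison by p, Cul3, and whole receptor, NeuroD, cerebellin, Zic and CaMKII families. The 2 strings and 3 E2F variants searched in promoters, the members and the lists were chosen with earlier results of these data known. Some genes that the rule names are not reported here.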

Additional observations from a re-analysis of the deposited data

Results flagged for a closer look

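In 359 groups of 6 libraries, 35 held a library far from the other 5 (9.75%), where chance gives about 1 in 20. In CB, mouse 3 stood apart in 9 of these. Its choroid plexus markers summed to 1607 CPM against at most 399.5 CPM in the others, its Hox markers to 7.45 CPM and its neocortex markers to 399.9 CPM. The neocortex sum does not measure neocortical tissue in CB, since Cux1 and Foxp2 on that list were called higher in CB. Mouse 3 was highest for Slc6a5, the glycine transporter (19.94 CPM), the glycine receptor subunit Glra3 (2.84 CPM), Grm7 (21.89 CPM), Gabrg3 (6.198 CPM) and Camk2n2 (31.33 CPM), and lowest for Zic4 (144.9 CPM). In CB of mouse 2, meninges markers summed to 838.7 CPM, endothelium markers to 283.6 CPM, and Ngfr (64.59 CPM) and Neurl1b (76.8 CPM) were highest. Cbln3 was highest in CB of mouse 5 (63.33 CPM), and Neurod2 lowest in that of mouse 6 (149.7 CPM).

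In HIP, mouse 6 stood apart with neocortex markers summing to 381.6 CPM. It was highest for Camk2n1 (149.8 CPM), Cbln2 (29.49 CPM), Grm2 (29.31 CPM), Slc17a6 (87.77 CPM) and Neurl1b (136.2 CPM), and lowest for Ntrk3 (169.9 CPM). Mouse 5 was highest for Gad2 (101.5 CPM), Glra3 (4.744 CPM) and Npy2r (73.73 CPM), and lowest for Grin3a (88.94 CPM), Ier2 (4.686 CPM), Olig1 (74.94 CPM) and Sorcs3 (33.42 CPM). Mouse 4 was lowest for Cdkn2d (34.77 CPM) and Snrk (125.1 CPM), mouse 3 highest for Grid1 (68.79 CPM), and mouse 2 lowest for Etv1 (31.68 CPM) with a choroid plexus sum of 176 CPM. The HIP library of mouse 1 was the deepest, at 42330000 counts, rounded to 4 digits.

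The region difference at P7 differed from that at E17.5 in 12978 genes and from that at P35 in 11311, by the interaction term. Against E17.5, the difference of log2 values was 3.27 for Rem2, 2.73 for Kcnab2, 7.50 for Slc30a3, 2.02 for Pld3 and 2.92 for Nceh1, and −5.62 for Mndal, −4.58 for Dio2, −7.34 for Ifi203, −3.59 for Il16 and −4.37 for Cntn2. Against P35 it was 3.02 for Snrk, 4.32 for Garnl3, 4.01 for Nab2, 3.04 for Slc41a3 and 2.38 for Icmt, and −5.28 for Neurl1b, −5.19 for Kcnq5, −4.63 for Basp1, −4.43 for D430019H16Rik and −4.97 for Islr2. Each age comes from its own set of mice, and age and set cannot be told apart.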

How the results depend on the processing

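The count of 14070 called genes ranged from 13156 to 15377 over the alternatives, and that of 4706 genes at 2-fold or more from 3840 to 6425, the highest without the filter on low counts. Leaving out 1 mouse gave 13534 to 14188 and 4674 to 4810. Leaving out mice 3 and 6, chosen after seeing the data for their choroid plexus, Hox and neocortex values, gave 13156 and 4834. Scaling by library totals alone moved the median of all genes from −0.02 to −0.15, and the share of calls higher in HIP from 49.5% to 40.6%, and from 50.3% to 38.7% in Cul3+/- mice. Over the lists, 328 members were called at any size, against 324 to 334 in the alternatives and 325 to 330 without 1 mouse. Of 700 values of counts at 2-fold or more per list and direction, 685 were within 1.5 times the main count and 15 were not.

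Of 2674 values for 191 single genes, none changed sign and 11 lost the call. Library totals alone lost Sox2 (0.12), Spop (0.06) and Tfap2c (0.22). Zbtb18 was lost without the filter, under another or no block, without mice 3 and 6, and without mouse 3, 4, 5 or 6. The cause was not tested.

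Without the mouse as a block, 13951 genes were called at P7, 4679 at 2-fold or more, 12715 in Cul3+/- mice, 12971 against E17.5 and 11298 against P35, and with the number in the titles as the block 13733. Of the single genes, only Zbtb18 lost its call without the block.

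DESeq2 called 2 genes in the genotype interaction (Gm23262 and Gm24924) and the likelihood ratio test 2 (Gm23262 and a copy of Gm23925), against 0 in the other alternatives and 0 to 0 without 1 mouse. Without 1 mouse, the Cul3+/- count was 12127 to 13000, the E17.5 count 12443 to 13136 and the P35 count 10587 to 11708. Keeping the P35 mouse of differing genotypes gave 11737 against P35. Differences in genes under the filter on low counts could not be assessed at this depth.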
